A study of Mus musculus with 6 samples.

Results

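Bone marrow of old mice 24 h after an experimental stroke was compared with bone marrow of old mice at steady state, within cell lineages. The cells compared were those of the 2 marrow libraries of aged mice that held at least 500 unique molecular identifiers (UMIs, each marking 1 counted transcript molecule) and at most 10% mitochondrial UMIs. They numbered 9044 of the 28055 barcodes of the series, 2655 after stroke and 6389 at steady state. The series holds 6 droplet libraries made with a 3′ reagent kit, and it compares young and aged wild-type mice. The stroke group was aged wild-type mice whose middle cerebral artery had been occluded 24 h before, which cuts the blood supply of part of the forebrain, and the steady-state group was aged wild-type mice with no treatment. Both groups were sorted for Gr1+ and c-kit+ enriched fractions of the marrow, so the sort, which favours granulocytes and progenitors, helps to set every share of cells below. The labels are silent on exact ages, strain and how many animals were used, and no sham-operated group was analysed here.

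Each group had 1 library. No difference below could therefore be set against the spread between animals, and no p-value is given. A ratio carries a 95% interval from the exact conditional binomial test on the UMIs, a share carries an exact (Clopper-Pearson) binomial interval, and both cover counting error only. Stroke, library, sequencing depth and any difference in processing between the 2 libraries cannot be told apart.

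Neutrophils are made in the marrow through an ordered series of stages. Stem and progenitor cells give rise to neutrophil-primed progenitors that fill the first (azurophil) granules with myeloperoxidase and elastase, these become dividing pre-neutrophils that make the specific granule proteins, and non-dividing immature and mature neutrophils follow, the last being held in the marrow until they are released. Monocytes arise from a related progenitor. After tissue injury or infection, growth factors such as G-CSF and IL-6 and adrenal glucocorticoids speed up output and release, a state known as emergency myelopoiesis, and acute-phase proteins such as serum amyloid A and lipocalin are made by myeloid cells as well as by the liver.

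The deposited counts summed to 43789122 UMIs over 3017 barcodes in the stroke library and to 68455949 UMIs over 6389 barcodes in the steady-state library. The median kept cell held 11255 UMIs after stroke and 9150 at steady state. The kept barcodes were spread differently: the 5th percentile of UMIs per kept cell was 721 after stroke and 4377 at steady state, and the highest mitochondrial share in a barcode was 9.95% after stroke and 4.99% at steady state. The 2 libraries shared 5 barcode sequences. A second difference followed the genes' 3′ sequence. Each gene was given the percentage of the 32-base words in the last 600 bases of its transcripts that another gene also holds. Over the whole libraries, the 106 genes with more than 50% of shared words had a median log2 ratio of 1.06, stroke over steady state, and 54.7% of them were at least 2-fold higher after stroke. The 1193 genes with no shared word had a median of -0.35, and 1.34% of them were at least 2-fold higher. The young stroke and steady-state libraries showed the same gradient, with a median of 1.01 for the genes with more than 50% of shared words. Histone genes were counted whatever their share of such words: 14 of 20 tested were at least 2-fold higher after stroke and none lower, with a median log2 ratio of 2.12 in old and 1.83 in young mice. They do not all follow the gradient, since Hist1h4d has no shared word and was higher in each of the 5 lineages that tested it. The labels do not say how each library's reads with more than 1 matching gene were handled, and the part of that step in the gradient was not tested. The genes described below therefore have at most 20% of shared words, and they are said to be higher or lower only where the ratio reached 2-fold. Some of the widely higher genes lie just under that limit, Sec61g at 19.3%, Tma7 at 18.1% and Ifitm1 at 18.0%.

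**Figure D1:**
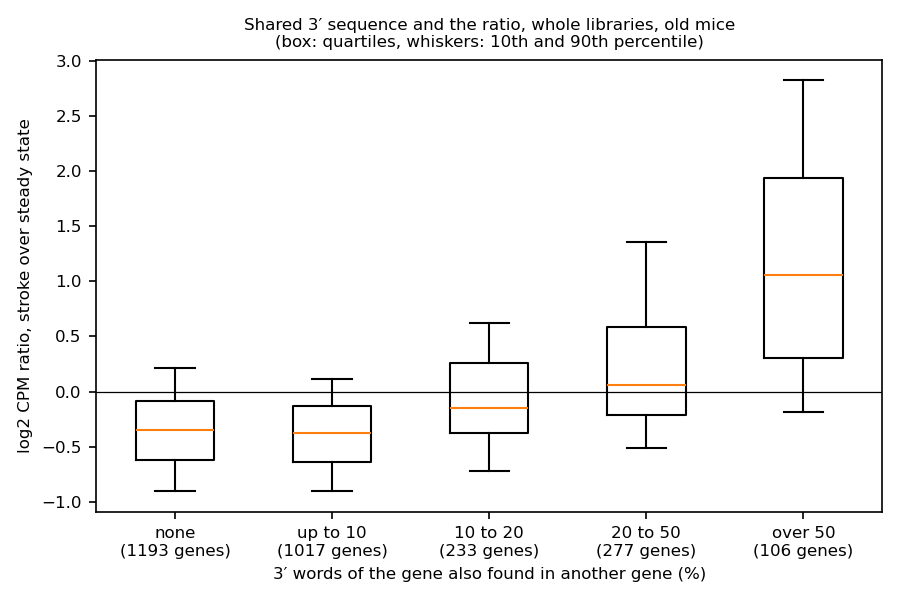
Log2 ratio of CPM (a gene's UMIs scaled to a common total per library), stroke over steady state, for genes of the whole libraries of old mice, by the share of 3′ words that another gene also holds (box, quartiles with the median in orange; whiskers, 10th to 90th percentile). The median is -0.35 for 1193 genes with no shared word and is 1.06 for 106 genes with more than 50% of shared words.

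Cells were assigned by the summed rate of a few marker genes per 10000 UMIs. Gated neutrophils were more often at the non-dividing stages after stroke than at steady state. Immature neutrophil-like cells, which carry granule transcripts with division transcripts under the threshold, made up 16.6% (441 cells; interval 15.2% to 18.1%) of kept cells after stroke and 10.4% (664 cells; 9.66% to 11.2%) at steady state. Mature neutrophil-like cells made up 3.65% (97 cells) after stroke and 0.485% (31 cells) at steady state. Their gate reads the release receptor Cxcr2, the G-CSF receptor Csf3r, Il1r2, Trem1, Clec4d and Msrb1, and it needs a UMI of Cxcr2 or Il1r2. Within this gate Il1r2 was at 820 CPM after stroke and 111 CPM at steady state. Its part in the share of mature cells was not tested. Dividing pre-neutrophil-like cells were 7.61% of cells after stroke and 9.77% at steady state. Among cells above the granule threshold, 31.4% (202 of 643; 27.8% to 35.2%) met the division threshold after stroke, against 48.4% (624 of 1288; 45.7% to 51.2%) at steady state. Each cell was also thinned to 2000 UMIs, which left 550 of those 643 stroke cells and all 1288 steady-state cells. There any UMI of a division gene counted, a looser rule than the division threshold. By that rule the share was 33.1% (29.2% to 37.2%) after stroke and 52.5% (49.7% to 55.2%) at steady state. The thinned shares are therefore not a repeat of the unthinned ones at equal depth.

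The early and monocyte gates ran the other way. Stem and progenitor-like cells made up 8.47% (225 cells) after stroke and 18.0% (1147 cells) at steady state, neutrophil-primed progenitor-like cells 11.4% (303) after stroke and 20.2% (1290) at steady state, and monocyte-like cells 8.70% (231) after stroke and 14.8% (947) at steady state. Plasmacytoid dendritic-like cells were 1.39% after stroke and 4.60% at steady state. Lymphocytes were a larger share after stroke: NK-like cells were 3.35% (89 cells) after stroke and 0.297% (19 cells) at steady state, and T-like cells 2.37% (63) after stroke and 0.610% (39) at steady state. Macrophage-like cells were 0.603% (16 cells) after stroke and 0 of 6389 at steady state, where 3 counts would be 0.0470% and the exact interval ends at 0.0577%. A share falls when another rises, and 19.8% of the stroke cells but 3.82% of the steady-state cells met no gate, so these shares describe the 2 sorted libraries and not the marrow. The cells without a gate were shallower after stroke, with a median of 3401 UMIs against 10979 at steady state.

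**Figure D2:**
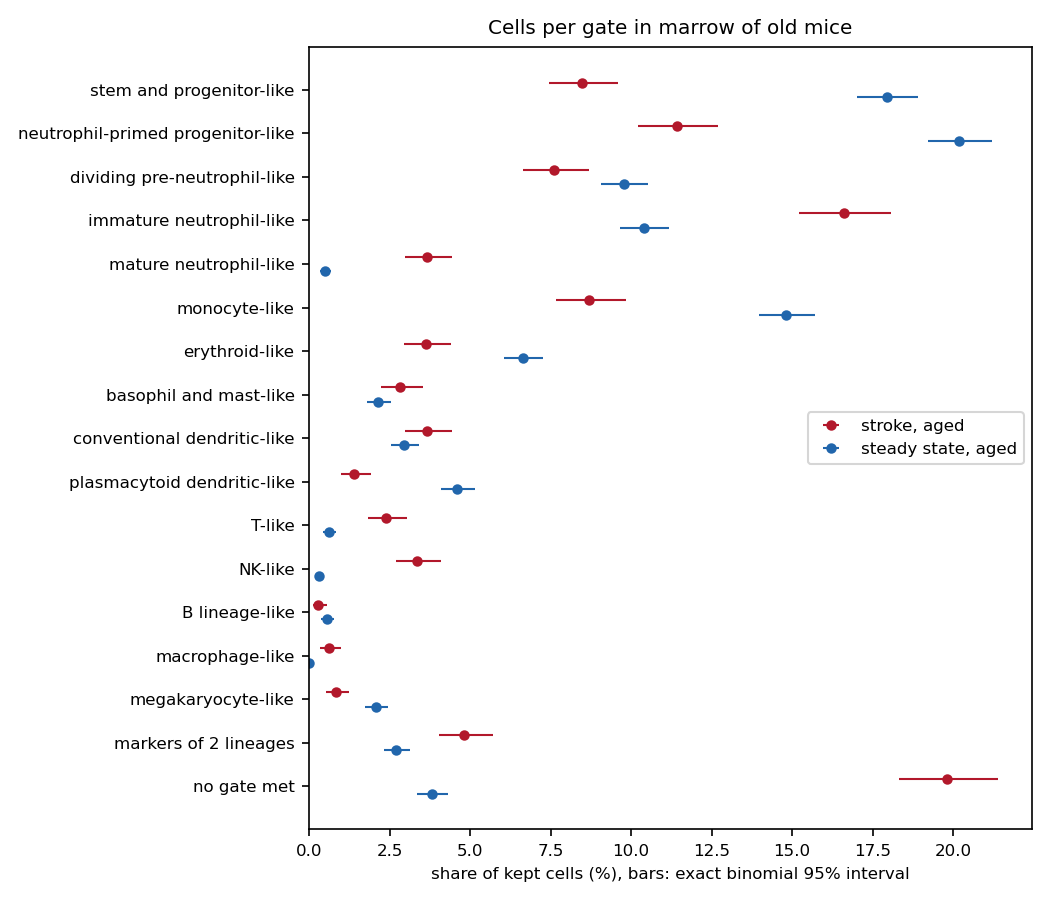
Share of kept cells (%) in each gate after stroke (red) and at steady state (blue) in old mice; bars are exact binomial 95% intervals. Immature and mature neutrophil-like, NK-like and T-like cells lie higher after stroke, and stem, neutrophil-primed, monocyte-like and plasmacytoid dendritic-like cells lie lower.

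The genes that led each gate include markers that the gate reads, which lead it by construction and are no check of its name. The 10 leading genes of the neutrophil-primed progenitor-like cells after stroke included Mpo, Elane, Prtn3 and Ctsg, those of the pre-neutrophil-like cells Fcnb, Camp, Ngp and Cebpe, those of the immature cells Mmp9, Ltf and Mmp8, and those of the monocyte-like cells Fn1, F13a1, Ccr2 and Ms4a6c. Of these, only Fcnb, Cebpe, Mmp9, Mmp8 and Fn1 are not read by the gate they led. Genes used for a gate are not reported as differences within it. Levels are CPM, a gene's UMIs summed over the cells of a gate and scaled to the same total of UMIs for every gate and library. The mature gate was the thinnest, with 570947 UMIs after stroke and 162383 at steady state, and it held stem-cell markers at a summed 19.3 CPM after stroke and 302 CPM at steady state and plasmacytoid dendritic markers at 24.5 CPM after stroke and 326 CPM at steady state.

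By number, monocyte-like cells held the most genes that were 2-fold apart. After stroke they carried acute-phase and neutrophil-type secreted transcripts, led by Saa3, Lrg1 and Lcn2, and the decoy receptor Il1r2, while Cx3cr1, the fractalkine receptor of the patrolling monocyte subset, and 8 of 16 S phase genes were lower. Of 3006 genes tested (at least 50 CPM as the mean of both libraries and 100 UMIs in both together), 190 (6.32%) were at least 2-fold higher and 312 (10.4%) at least 2-fold lower, around a median log2 ratio of -0.20. Among the 2606 with little shared 3′ sequence the split was 77 higher and 302 lower. Scaling by the median of ratios instead of the total gave 239 higher and 179 lower. As a share of fewer genes tested, mature neutrophil-like cells had 9.11% higher and 10.3% lower.

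Saa3, an acute-phase serum amyloid A protein made outside the liver, was at 876 CPM after stroke and 9.64 CPM at steady state. That is a log2 ratio of 6.51 (6.20 to 6.83). A Saa3 UMI was seen in 70.6% of monocyte-like cells after stroke and in 1.27% at steady state, where the 10 richest cells held 97.6% of the UMIs. Erythroid-like cells, which should lack it, were at 2.21 CPM after stroke and had no UMI at steady state. Il1r2, which binds interleukin 1 without signalling, was at 278 CPM after stroke and 6.01 CPM at steady state (log2 5.53, 5.14 to 5.95), and was seen in 80.1% of cells after stroke and in 4.65% at steady state. In erythroid-like cells Il1r2 had no UMI after stroke and 9 UMIs at steady state. The median monocyte-like cell held 21457 UMIs after stroke and 8489 at steady state, so shares of cells with a UMI favour the stroke library; with each cell thinned to 2000 UMIs the log2 CPM ratio was 7.57 for Saa3 and 5.03 for Il1r2. Lrg1, a secreted glycoprotein of the acute phase that neutrophil granules also store, was at 267 CPM after stroke and 19.0 CPM at steady state (log2 3.81, 3.58 to 4.05).

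Lcn2, the iron-scavenging lipocalin of specific granules, was at 2591 CPM after stroke and 302 CPM at steady state in monocyte-like cells, a log2 ratio between 3.04 and 3.16. Cells with over 200 UMIs of Camp, Ngp, Ltf and Lcn2 together per 10000 went to the granule gates in both libraries, which caps Lcn2 here. Lcn2 was lower after stroke in erythroid-like cells, at 46.3 CPM against 162 CPM at steady state, and in T-like cells, at 139 CPM against 429 CPM. Of 10 tested specific granule genes with little shared 3′ sequence, 3 were higher (Lcn2, Lrg1 and Hp) and 3 lower, with a median log2 ratio of -0.07. The lower ones were Camp (106 CPM after stroke, 291 CPM at steady state) and Ltf (163 UMIs after stroke, 816 UMIs at steady state, log2 -1.62) and the oxidase subunit Cybb (267 CPM after stroke, 678 CPM at steady state). Camp and Ltf were lower in erythroid-like cells too, which should lack them. There Camp was at 64.0 CPM after stroke and 259 CPM at steady state, and Ltf at 13.7 CPM after stroke and 105 CPM at steady state. Summed over 7 markers of immature neutrophils, the gate held 3744 CPM after stroke and 1597 CPM at steady state, and the part of neutrophil RNA in the ratios was not tested.

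Sequences around an annotated start of these 4 genes are shown because the genes were higher together, and transcription factors of the acute phase are known to act on promoters. Each runs from 250 bases before to 50 bases after a start annotated by RefSeq (GRCm38.p6), on the gene's own strand. Capitals mark a match on either strand to TTGCNNAA, the core bound by C/EBP factors, or to TTCNNNGAA, bound by STAT factors. Both are short: 10.8% and 8.30% of 32851 mouse promoters of this length hold them, and a match is a description of the letters only.
Saa3, chr7:46715627-46715926, minus strand: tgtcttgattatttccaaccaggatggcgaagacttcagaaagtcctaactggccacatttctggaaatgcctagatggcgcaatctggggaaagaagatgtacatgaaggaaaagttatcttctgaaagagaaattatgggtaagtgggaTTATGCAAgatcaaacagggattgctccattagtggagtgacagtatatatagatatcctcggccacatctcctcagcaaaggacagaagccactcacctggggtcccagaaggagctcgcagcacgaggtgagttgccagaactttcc
Il1r2, chr1:40085843-40086142, plus strand: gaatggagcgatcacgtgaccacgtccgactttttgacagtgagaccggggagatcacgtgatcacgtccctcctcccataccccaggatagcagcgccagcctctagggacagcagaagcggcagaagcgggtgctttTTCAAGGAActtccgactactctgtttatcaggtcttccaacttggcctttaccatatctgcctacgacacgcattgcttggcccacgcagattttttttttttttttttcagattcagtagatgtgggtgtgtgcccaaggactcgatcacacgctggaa
Lcn2, chr2:32387690-32387989, minus strand: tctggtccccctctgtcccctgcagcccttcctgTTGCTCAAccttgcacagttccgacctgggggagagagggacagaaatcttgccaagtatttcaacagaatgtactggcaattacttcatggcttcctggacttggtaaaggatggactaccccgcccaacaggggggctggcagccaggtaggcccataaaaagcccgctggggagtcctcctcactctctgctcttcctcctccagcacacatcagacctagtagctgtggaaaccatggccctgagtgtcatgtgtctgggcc
Lrg1, chr17:56121897-56122196, minus strand: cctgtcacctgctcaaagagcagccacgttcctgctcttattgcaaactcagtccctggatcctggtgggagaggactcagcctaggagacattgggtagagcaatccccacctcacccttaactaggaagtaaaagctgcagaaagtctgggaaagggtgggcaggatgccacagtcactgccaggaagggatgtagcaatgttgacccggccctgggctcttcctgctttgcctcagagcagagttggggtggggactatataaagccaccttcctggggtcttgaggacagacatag
Saa3 and Lcn2 each held 1 C/EBP core, 99 and 216 bases before the RefSeq start, and Il1r2 held 1 STAT core, 111 bases before its own. In the Lrg1 window no motif was found. GENCODE (GRCm38) places Saa3 at chr7:46711998-46715700, Il1r2 at chr1:40074079-40125231, Lcn2 at chr2:32384633-32388252 and Lrg1 at chr17:56119678-56122001. The windows of Il1r2 and Lcn2 lie wholly inside these spans. Their matches are therefore near an internal start and not upstream of the whole gene.

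Of the list of alarmins and secreted neutrophil proteins, 15 members were tested in monocyte-like cells. Their median log2 ratio was 0.99 against -0.20 for all genes, 7 were higher and 3 lower. Higher besides Lcn2 and Lrg1 were the alarmin subunit S100a8 (20312 CPM after stroke, 5214 CPM at steady state), the small secreted proteins Wfdc21 (1063 CPM after stroke, 130.0 CPM at steady state) and Wfdc17 (720.1 CPM after stroke, 314 CPM at steady state), the interferon-inducible membrane protein Ifitm1 (924 CPM after stroke, 95.8 CPM at steady state) and haptoglobin, Hp (1605 CPM after stroke, 687 CPM at steady state). Lower were Retnlg (439 CPM after stroke, 1221 CPM at steady state), Pglyrp1 and Anxa3, which neutrophils also carry. In erythroid-like cells Retnlg was at 14.1 CPM after stroke and 348 CPM at steady state. S100a9, the partner of S100a8, stayed under 2-fold at 9900.2 CPM after stroke and 6481 CPM at steady state.

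Receptors and regulators of inflammation followed. Clec4e, a receptor for damaged cells and mycobacteria, was at 101 CPM after stroke and 19.7 CPM at steady state (log2 2.36, 2.11 to 2.61), and the chemokine receptor Ccr1 at 157 CPM after stroke and 61.4 CPM at steady state (log2 1.35, 1.20 to 1.51). Vcan, the matrix proteoglycan of classical monocytes, was at 462 CPM after stroke and 61.4 CPM at steady state. Of 8 tested glucocorticoid-responsive genes, 3 were higher, Fkbp5 (97.3 CPM after stroke, 41.4 CPM at steady state), the metal-binding Mt1 (155 CPM after stroke, 49.0 CPM at steady state) and Il1r2, and 1 was lower, Rgs2 (95.6 CPM after stroke, 237 CPM at steady state). The oxygen-regulated transcription factor subunit Hif1a was at 112 CPM after stroke and 43.2 CPM at steady state, and the NF-kB inhibitor Nfkbia at 244 CPM after stroke and 112 CPM at steady state. Pim1, a kinase induced by cytokine and STAT signalling, was at 206 CPM after stroke and 62.5 CPM at steady state (log2 1.72, 1.58 to 1.87).

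Among the genes with little shared 3′ sequence, 11.6% were lower in monocyte-like cells, and the counts of the lists stand beside that share. Cx3cr1 was at 12.3 CPM after stroke and 182 CPM at steady state (log2 -3.88, -4.26 to -3.53), seen in 11.7% of cells after stroke and 67.1% at steady state. Bcl2, a survival factor, was at 11.4 CPM after stroke and 127 CPM at steady state, the interferon-inducible Ifi203 at 23.6 CPM after stroke and 195 CPM at steady state, and the fungal receptor Clec7a at 25.4 CPM after stroke and 166 CPM at steady state. Of 7 MHC class I presentation genes tested, 2 were lower and none higher: B2m, the light chain (570.0 CPM after stroke, 1240.3 CPM at steady state), and the peptide transporter Tap1 (42.9 CPM after stroke, 99.4 CPM at steady state). H2-DMa, which loads class II molecules, was at 96.6 CPM after stroke and 283 CPM at steady state. Of 16 S phase genes, 8 were lower and none higher (median log2 -0.98), among them the helicase subunits Mcm2, Mcm3, Mcm5 and Mcm6. Of 23 mitosis genes, 3 were lower, a share near that of all genes, with Mki67 at 305 CPM after stroke and 689.9 CPM at steady state. The share of cells with a mitosis UMI among 2000 was 73.9% (67.5% to 79.6%; 13 shallower cells left out) after stroke and 84.3% (81.8% to 86.5%) at steady state.

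The monocyte gate itself held different cells in the 2 libraries. Its marker Irf8, a transcription factor of monocyte and dendritic progenitors, was at 301 CPM after stroke and 1078 CPM at steady state, and Csf1r at 85.7 CPM after stroke and 198 CPM at steady state, while Ms4a6c was at 1302 CPM after stroke and 1265 CPM at steady state. Summed over 6 markers of mature neutrophils the gate held 1468 CPM after stroke and 804 CPM at steady state, and over 10 stem-cell markers 28.6 CPM after stroke and 218 CPM at steady state. Their part in the ratios was not tested. Doubling the marker thresholds left 21 cells after stroke and 487 at steady state. Within those, the log2 ratios of Saa3, Il1r2, Lrg1 and Lcn2 were 9.15, 6.98, 5.02 and 3.07, and the keratinocyte-associated gene Dmkn, which was at 213 CPM after stroke and 14.2 CPM at steady state in the full gate, had a log2 ratio of -0.14.

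**Figure D3:**
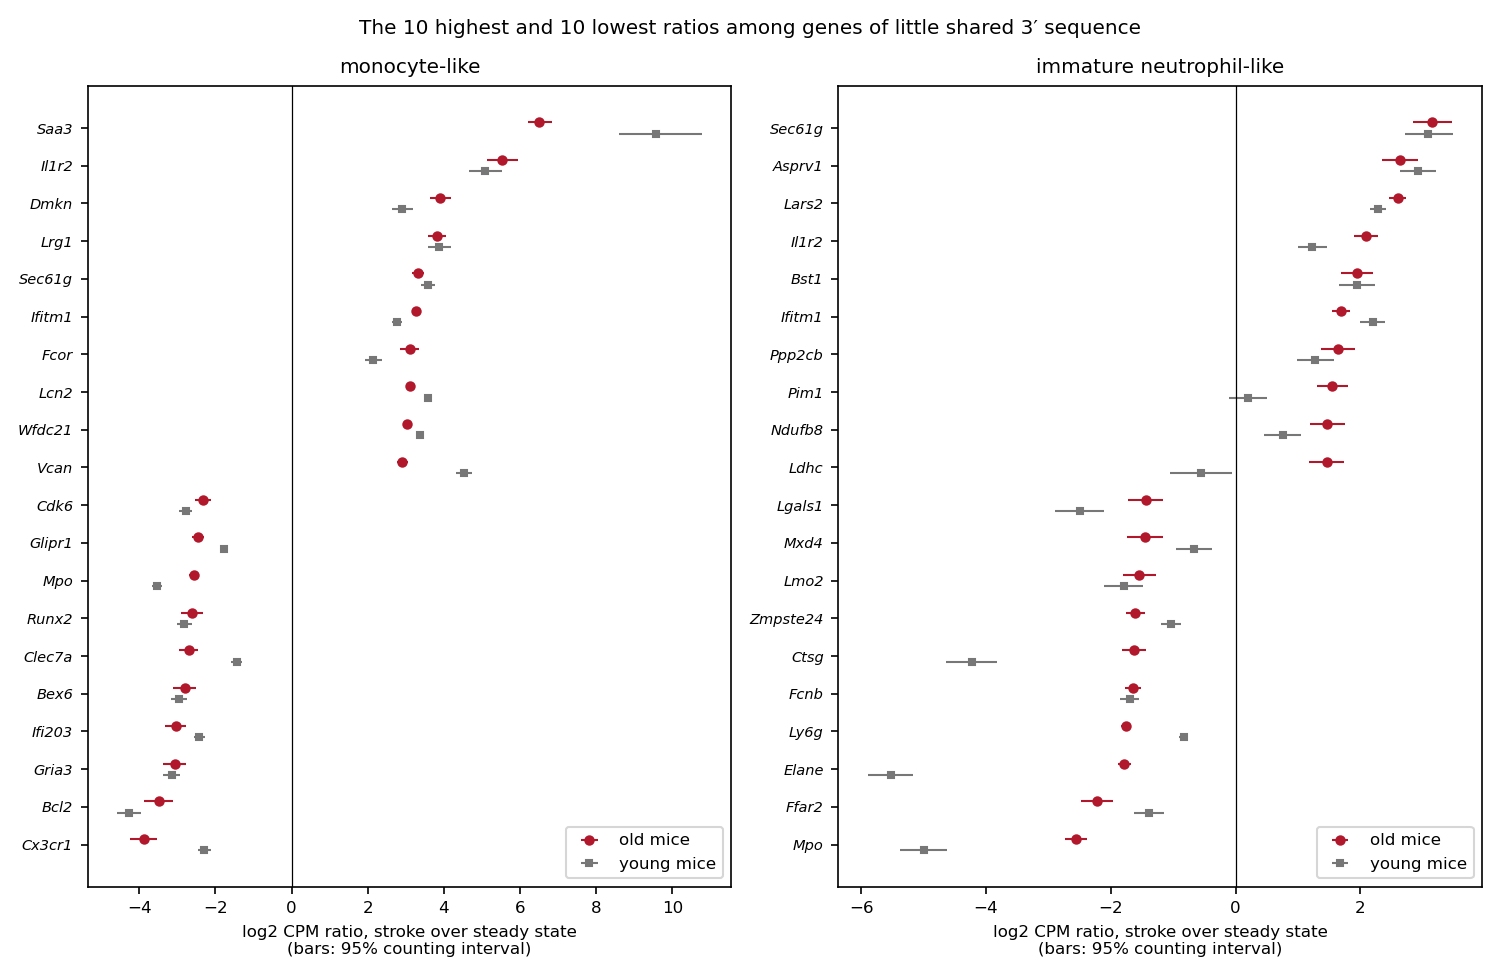
Log2 CPM ratio, stroke over steady state, of the 10 highest and 10 lowest genes with little shared 3′ sequence in monocyte-like (left) and immature neutrophil-like (right) cells; red circles are old mice, grey squares the same ratio in young mice, bars 95% counting intervals. Saa3 at 6.51 and Il1r2 at 5.53 lead in monocyte-like cells, and Sec61g and Asprv1 (2.63) lead in immature cells.

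In immature neutrophil-like cells, 6 of 15 alarmins and secreted proteins were higher after stroke and 4 of 6 azurophil granule genes lower. Il1r2, Lrg1, S100a6, Retnlg, Ccr1 and the transcription factor Cebpb were higher, and Ly6g, the surface protein by which mouse neutrophils are sorted, was lower. Of 1678 genes tested, 74 (4.41%) were higher and 76 (4.53%) lower, around a median log2 ratio of -0.23. With little shared 3′ sequence the split was 36 higher and 63 lower of 1463 genes. Scaling by the median of ratios gave 108 higher and 34 lower.

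Among surface genes of immature cells, Il1r2 was at 228 CPM after stroke and 53.6 CPM at steady state (log2 2.09, 1.89 to 2.29), seen in 73.7% of cells after stroke and 29.1% at steady state. Bst1, a surface enzyme of the cyclic ADP-ribose pathway, was at 128 CPM after stroke and 33.1 CPM at steady state. Ccr1 was at 241 CPM after stroke and 103 CPM at steady state, and Clec4e at 101 CPM after stroke and 44.5 CPM at steady state. Retention and release receptors were mostly under 2-fold: of 14 tested, 1 was higher (Ccr1) and 1 lower (Ly6g), with a median log2 ratio of 0.08. Ly6g was at 304 CPM after stroke and 1026 CPM at steady state (log2 -1.75, -1.83 to -1.67), and the short-chain fatty acid receptor Ffar2 at 28.5 CPM after stroke and 132 CPM at steady state.

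Of 15 alarmins and secreted proteins tested in immature cells, 6 were higher and none lower, with a median log2 ratio of 0.60. They were Lrg1 (1065 CPM after stroke, 432 CPM at steady state), the calcium-binding S100a6 (8226 CPM after stroke, 3220.4 CPM at steady state), the resistin-like Retnlg (10448 CPM after stroke, 4917 CPM at steady state), Ifitm1 (330.1 CPM after stroke, 103 CPM at steady state), Wfdc17 (201 CPM after stroke, 78.8 CPM at steady state) and thrombospondin 1, Thbs1. S100a8, at 203486 CPM after stroke and 150719 CPM at steady state, and S100a9, at 204234 CPM after stroke and 194828 CPM at steady state, stayed under 2-fold. The protease Asprv1 was at 154 CPM after stroke and 25.0 CPM at steady state (log2 2.63, 2.35 to 2.92). Of 8 G-CSF and emergency granulopoiesis genes, 2 were higher and none lower: Cebpb, the factor of emergency granulopoiesis, at 201 CPM after stroke and 90.2 CPM at steady state, and Pim1 at 108 CPM after stroke and 37.0 CPM at steady state. Cebpe, the factor of steady-state terminal differentiation, was at 291 CPM after stroke and 447 CPM at steady state, under 2-fold.

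Of 6 azurophil granule genes in immature cells, 4 were lower and none higher, with a median log2 ratio of -1.45. Mpo, myeloperoxidase, was at 60.7 CPM after stroke and 358 CPM at steady state, and Elane, neutrophil elastase, at 169 CPM after stroke and 582 CPM at steady state. A few cells held most of this: the 10 richest held 89.3% of the Elane UMIs after stroke and 71.7% at steady state. When every cell counted equally, the list's median over all tested members was -0.17 in place of -1.52 and Ctsg, the serine protease cathepsin G, had a log2 ratio of 0.04 in place of -1.62. Immunoglobulin transcripts, which these cells do not make, summed to 45.2 CPM after stroke and 1893 CPM at steady state, and their part in the lower side was not tested.

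In dividing pre-neutrophil-like cells, 5 of 14 alarmins and secreted proteins were higher and 5 of 9 S phase genes lower after stroke. Of 2020 genes tested, 88 (4.36%) were higher and 110 (5.45%) lower, around a median log2 ratio of -0.29, and 25 were higher and 96 lower among the 1744 with little shared 3′ sequence. Scaling by the median of ratios gave 132 higher and 36 lower. Il1r2 was at 154 CPM after stroke and 24.4 CPM at steady state (log2 2.66, 2.42 to 2.90), Ccr1 at 132 CPM after stroke and 40.6 CPM at steady state, and Lrg1 at 661 CPM after stroke and 265 CPM at steady state. Of 14 alarmins and secreted proteins, 5 were higher and none lower (median log2 0.71): Lrg1, S100a6, Wfdc17, Ifitm1 and Ifitm6, which was at 2572 CPM after stroke and 1116 CPM at steady state. The 10 richest cells held 72.7% of the Wfdc17 UMIs after stroke.

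On the lower side of the pre-neutrophil-like cells, 5 of 9 S phase genes were lower and none higher (median log2 -1.01), Mcm3, Mcm5, Mcm6, the clamp loader subunit Rfc2 and the checkpoint adaptor Clspn. The azurophil enzymes Mpo (274 CPM after stroke, 983 CPM at steady state) and Ctsg (175 CPM after stroke, 573 CPM at steady state) were lower, as were Ly6g (102 CPM after stroke, 261 CPM at steady state), the cell-cycle kinase Cdk6 (25.6 CPM after stroke, 116 CPM at steady state) and the chaperone calreticulin, Calr (77.0 CPM after stroke, 323 CPM at steady state). Irf8 was at 5.68 CPM after stroke and 128 CPM at steady state. Prg2, the eosinophil major basic protein, was at 2.46 CPM after stroke and 189 CPM at steady state, where 10 cells held 96.6% of it.

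Mature neutrophil-like cells rest on 97 cells after stroke and 31 at steady state, and their intervals are wide. Of 768 genes tested, 70 (9.11%) were higher and 79 (10.3%) lower, around a median log2 ratio of -0.12, and 43 were higher and 50 lower among the 623 with little shared 3′ sequence. Scaling by the median of ratios gave 84 higher and 63 lower. Wfdc17 was at 2862 CPM after stroke and 197 CPM at steady state (log2 3.86, 3.36 to 4.41), Ifitm1 at 3436 CPM after stroke and 616 CPM at steady state (log2 2.48, 2.19 to 2.78), and Lrg1 at 1547 CPM after stroke and 302 CPM at steady state (log2 2.36, 1.94 to 2.80). The secreted peptide Prok2, which draws neutrophils, was at 172 CPM after stroke and 24.6 CPM at steady state, from 98 UMIs after stroke and 4 at steady state (log2 2.80, 1.40 to 4.71). Thbs1 had 126 UMIs after stroke, or 221 CPM, and none at steady state. Counted against a floor of 3 UMIs per library, it was 11.9-fold higher (log2 3.58, with a lower interval end of 3.26). The 10 richest of the 97 cells held 58.7% of these UMIs, and without them the log2 ratio against the floor was 1.92 in place of 3.58. In all, 7 of 14 alarmins and secreted proteins were higher and none lower, with a median log2 ratio of 0.82.

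Of 34 ribosomal protein genes tested in the mature gate, 17 were lower and 1 higher, with a median log2 ratio of -0.97, and of the 7 with little shared 3′ sequence 5 were lower, among them Rps14 (646 CPM after stroke, 2045 CPM at steady state). Hsp90ab1, a cytosolic chaperone, was at 184 CPM after stroke and 1127 CPM at steady state, and the ribosome-bound scaffold Rack1 at 191 CPM after stroke and 929.9 CPM at steady state. The oxidase subunit Cybb was at 231 CPM after stroke and 868 CPM at steady state. The 31 steady-state cells were those that also carried stem-cell and plasmacytoid dendritic markers, as given above, with erythroid markers at 15.8 CPM after stroke and 135 CPM at steady state, and the part of those transcripts in the lower genes was not tested.

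In neutrophil-primed progenitor-like cells the kinase Pim1 and the membrane protein Ifitm1 were higher after stroke, and 8 of 18 mitosis genes were lower. Of 2885 genes tested, 176 (6.10%) were higher and 178 (6.17%) lower, around a median log2 ratio of -0.12, and 57 were higher and 172 lower among the 2488 with little shared 3′ sequence. Scaling by the median of ratios gave 217 higher and 126 lower. Pim1 was at 156 CPM after stroke and 31.7 CPM at steady state (log2 2.30, 2.17 to 2.44), the AP-1 factor Junb at 94.0 CPM after stroke and 29.0 CPM at steady state, and Ifitm1 at 782 CPM after stroke and 92.8 CPM at steady state (log2 3.08). Of 3 tested glucocorticoid-responsive genes, 2 were higher, Mt1 (711 CPM after stroke, 293 CPM at steady state) and annexin A1, Anxa1 (533 CPM after stroke, 227 CPM at steady state). A lower minimum of 10 CPM and 30 UMIs, which lets in more members, gave this list a median log2 ratio of -0.16 in place of 1.23.

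Of 18 mitosis genes in neutrophil-primed progenitor-like cells, 8 were lower and none higher (median log2 -0.93), with the proliferation marker Mki67 at 92.6 CPM after stroke and 287 CPM at steady state and topoisomerase Top2a at 185 CPM after stroke and 458 CPM at steady state. None of 19 S phase genes reached 2-fold either way (median log2 -0.27). The share of cells with a mitosis UMI among 2000 was 96.7% after stroke and 94.7% at steady state, but 89 of the 303 stroke cells were too shallow and were left out. Lower too were Irf8 (81.6 CPM after stroke, 368 CPM at steady state), the progenitor surface protein Cd93 (23.7 CPM after stroke, 135 CPM at steady state), Bcl2 (21.5 CPM after stroke, 114 CPM at steady state), the monocyte and dendritic factor Zeb2 (26.1 CPM after stroke, 137 CPM at steady state) and the chemokine Ccl9 (41.2 CPM after stroke, 168 CPM at steady state). The adhesion receptor Cd44 was lower, at 42.1 CPM after stroke and 97.5 CPM at steady state.

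Stem and progenitor-like cells had fewer cell-cycle transcripts after stroke in both S phase and mitosis. Of 3088 genes tested, 141 (4.57%) were higher and 194 (6.28%) lower, around a median log2 ratio of -0.39, the lowest of the 6 lineages. With little shared 3′ sequence, 34 of 2674 were higher and 188 lower. Scaling by the median of ratios gave 222 higher and 41 lower, so which side holds more genes depends on the scale in this lineage. Of 15 S phase genes, 9 were lower and none higher (median log2 -1.18), and of 14 mitosis genes, 7 were lower and none higher (median log2 -1.02). Mki67 was at 103 CPM after stroke and 409.7 CPM at steady state, and Mcm3 at 113 CPM after stroke and 294 CPM at steady state. The share of stem and progenitor-like cells with a mitosis UMI among 2000 was 58.7% (52.0% to 65.3%) after stroke and 73.2% (70.5% to 75.8%) at steady state, where the unthinned shares were 96.0% and 93.5%.

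Lists of signal-response genes were mostly under 2-fold in stem and progenitor-like cells: 2 of 8 G-CSF and emergency granulopoiesis genes (Pim1 and Junb), 2 of 7 immediate early genes (Junb and Ier3) and 1 of 6 glucocorticoid-responsive genes (Tsc22d3) were higher and none lower. Pim1 was at 504 CPM after stroke and 200.5 CPM at steady state (log2 1.33, 1.23 to 1.43), Tsc22d3, the glucocorticoid-induced leucine zipper gene, at 148 CPM after stroke and 64.8 CPM at steady state (log2 1.19, 1.02 to 1.37), and Junb at 92.0 CPM after stroke and 39.0 CPM at steady state. Ier3, an early-response gene, was at 90.8 CPM after stroke and 40.4 CPM at steady state, and the sulfotransferase Sult1a1 at 129 CPM after stroke and 41.2 CPM at steady state. Ifitm1 was at 3121 CPM after stroke and 722 CPM at steady state. Dntt, the DNA polymerase of lymphoid progenitors, was lower, at 66.5 CPM after stroke and 316 CPM at steady state, as were Irf8 (8.82 CPM after stroke, 157 CPM at steady state) and the myeloid lectin Clec12a (5.67 CPM after stroke, 94.6 CPM at steady state). Neutrophil transcripts were lower as well, S100a8 at 302 CPM after stroke and 2879 CPM at steady state and Retnlg at 22.1 CPM after stroke and 626 CPM at steady state. S100a8 was lower in the same way in erythroid-like cells, at 273 CPM after stroke and 1841 CPM at steady state. The stem gate held different cells in the 2 libraries. Its lymphoid-primed markers, Dntt among them, summed to 202 CPM after stroke and 587 CPM at steady state. Monocyte markers, Irf8 among them, summed to 68.1 CPM after stroke and 427 CPM at steady state. Of the gate's own markers, Cd34 was at 225 CPM after stroke and 379 CPM at steady state, and Gata2 at 159 CPM and 156 CPM. The part of this in the ratios was not tested.

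**Figure D4:**
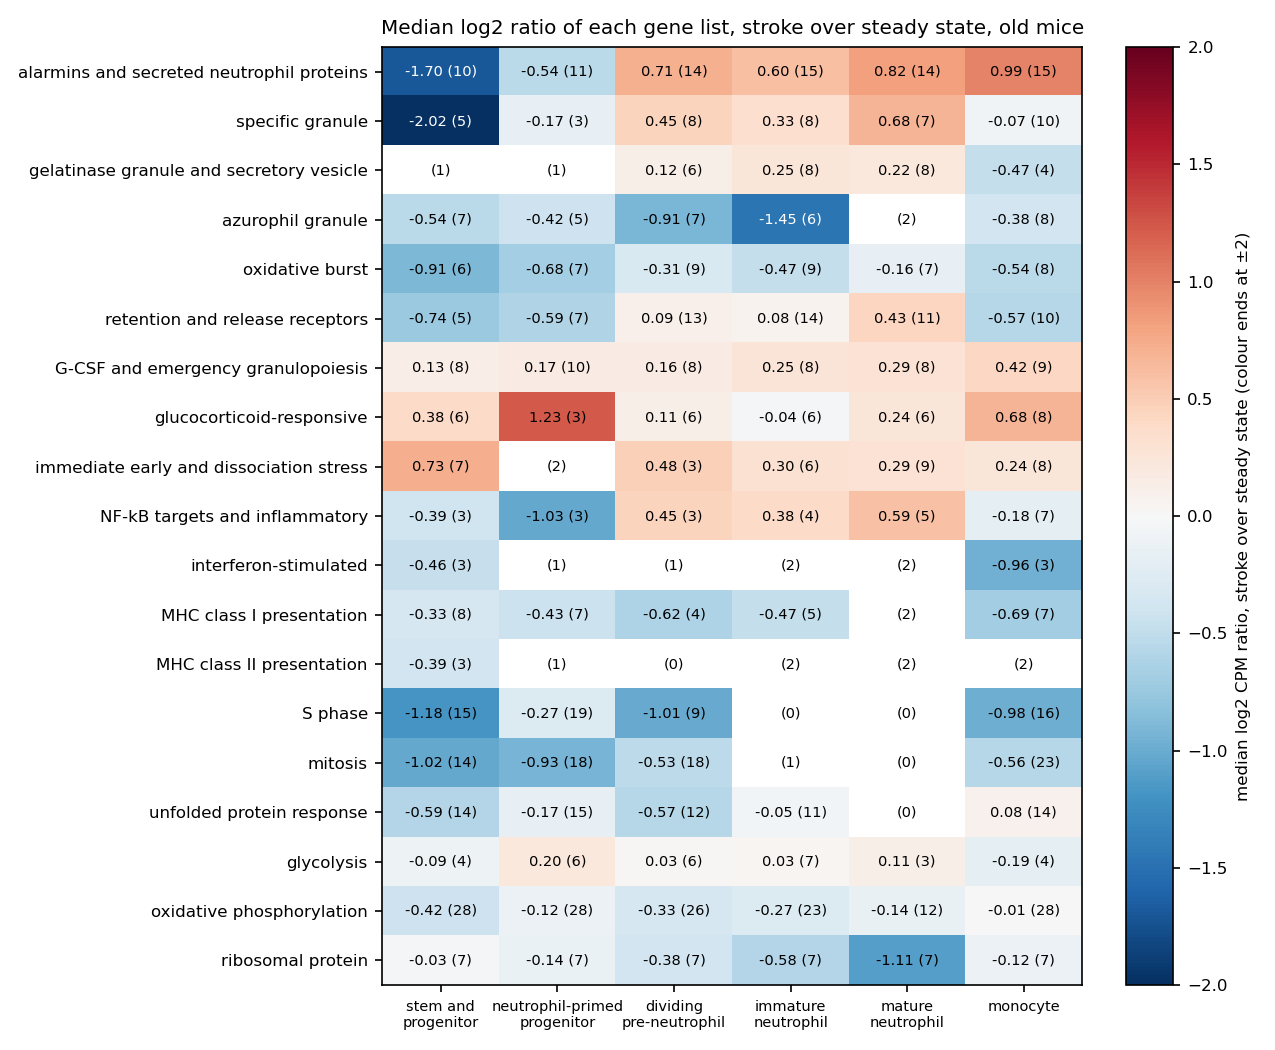
Median log2 CPM ratio, stroke over steady state, of each gene list in each gate of old mice, with the number of tested members that have little shared 3′ sequence and are no gate genes in brackets; medians are drawn for 3 or more members. Alarmins and secreted proteins lie above 0 in the 4 gates from dividing pre-neutrophil-like cells to monocyte-like cells, and S phase and mitosis lists lie below 0 wherever they are drawn.

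Few genes differed in every lineage. Of 923 genes tested in at least 5 of the 6 lineages, 8 were higher in each lineage that tested them: Pim1, Ifitm1, Wfdc17, Sec61g (a subunit of the protein-translocation channel), Tma7, the histone gene Hist1h4d and the non-coding Mir142hg and Mir6236. Pim1 had log2 ratios between 1.33 and 2.30 and Ifitm1 between 1.38 and 3.27. Another 6 were lower in each: the chromatin genes Atrx and H2afy, the cohesin subunit Smc1a, the splicing-related Pnisr and Rsrp1, and the galectin Lgals1. Pim1 was also higher in basophil and mast-like cells (148 CPM after stroke, 71.3 CPM at steady state) but not in erythroid-like cells (22.5 CPM after stroke, 33.9 CPM at steady state). Saa3 was under the minimum for a comparison in the neutrophil gates, with 304 UMIs after stroke and 0 at steady state in immature neutrophil-like cells, 48.3 CPM after stroke and 0.272 CPM (2 UMIs) at steady state in dividing pre-neutrophil-like cells, and 90 UMIs after stroke and 0 at steady state in mature neutrophil-like cells. Irf8 was lower in the 3 lineages outside the monocyte gate where it passed the minimum, with log2 ratios of -4.15 in stem and progenitor-like, -2.17 in neutrophil-primed progenitor-like and -4.49 in dividing pre-neutrophil-like cells. It did not pass in immature cells (8.06 CPM after stroke, 52.0 CPM at steady state) or in mature cells (8 UMIs after stroke, 28 UMIs at steady state).

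**Figure D5:**
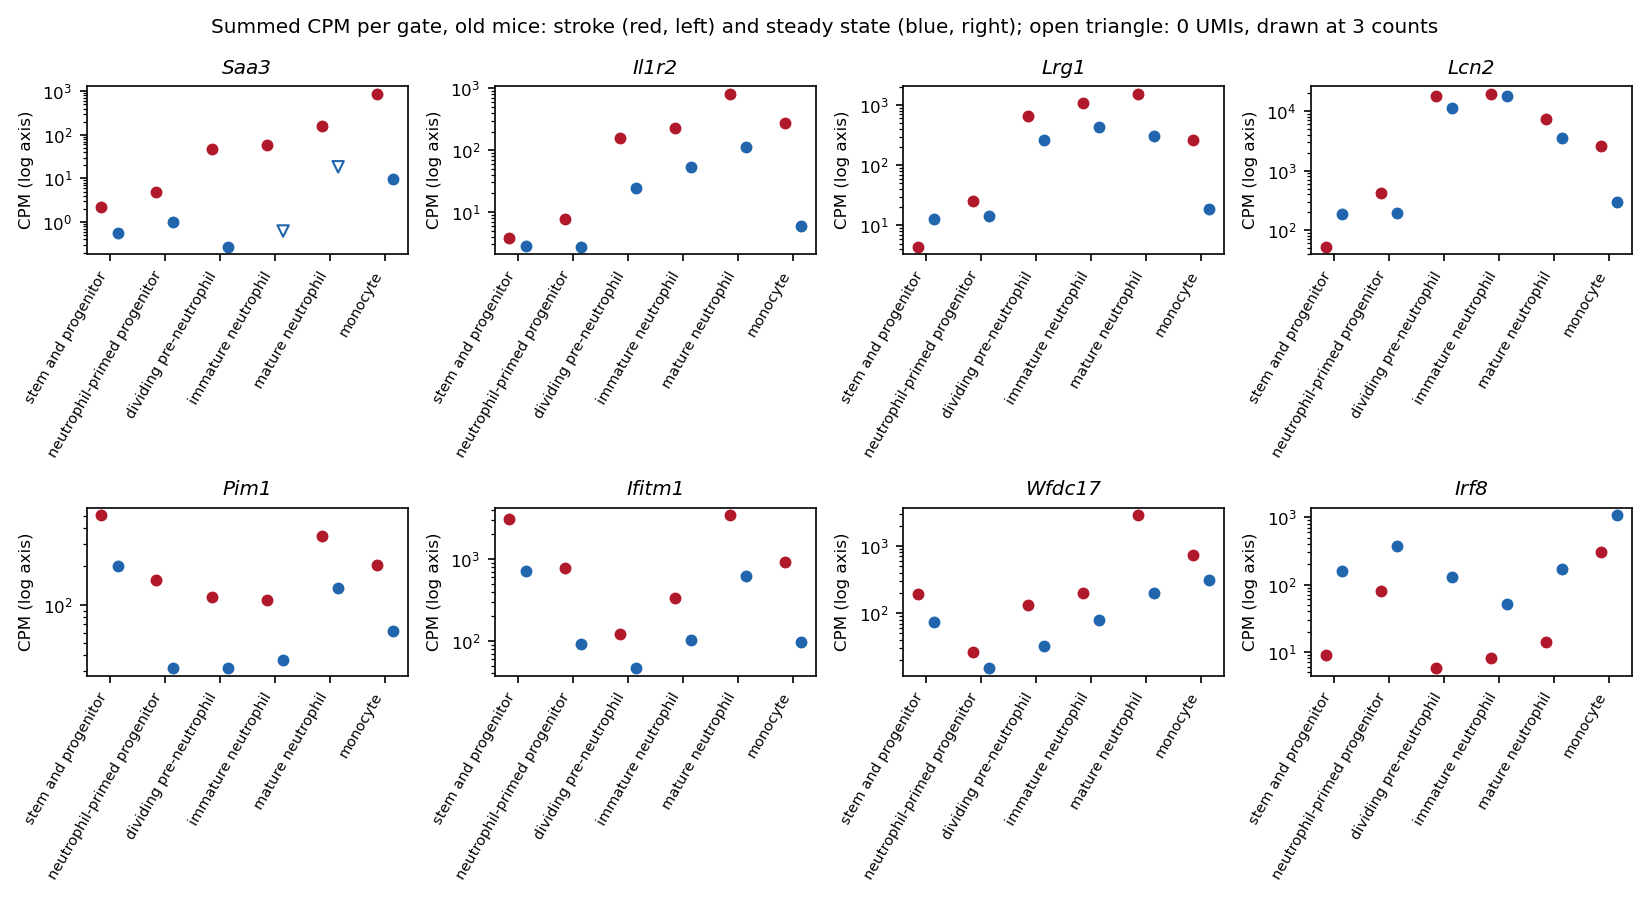
Summed CPM (log axis) of 8 genes in the 6 gates of old mice, stroke in red and steady state in blue; open triangles mark 0 UMIs, drawn at the level of 3 counts. Il1r2 serves the mature gate, Irf8 the monocyte gate, and Lcn2 the neutrophil-primed, dividing, immature and mature gates, so those pairs of points are not differences found. Saa3 reaches 876 CPM in monocyte-like cells after stroke against 9.64 CPM at steady state.

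The same comparison in young wild-type mice, stroke at 24 h over no treatment, from 2 other libraries with 10478 kept cells, is given beside these values. Of the genes at least 2-fold different in old mice with little shared 3′ sequence, 378 of 379 in monocyte-like cells had a ratio of the same sign in young mice, as did 96 of 99 in immature, 121 of 121 in dividing pre-neutrophil-like, 228 of 229 in neutrophil-primed progenitor-like, 220 of 222 in stem and progenitor-like and 87 of 93 in mature neutrophil-like cells. The same-sign share over all tested genes was not counted, so these counts have no background beside them. In monocyte-like cells 302 of the 379 genes were lower, and the median log2 ratio of all tested genes was -0.20 in old and -0.21 in young mice. Over all tested genes with little shared 3′ sequence, the Pearson correlation of old and young log2 ratios ran from 0.72 (mature) to 0.91 (monocyte-like). The young libraries show the same gradient with shared 3′ sequence, and a response and a processing difference common to both ages cannot be told apart. Sizes differed for some genes beyond counting error. Pim1 had log2 ratios of 2.30 in old and 0.84 in young neutrophil-primed progenitor-like cells, a gap of 1.47 (± 0.26, counting), and of 1.55 in old and 0.20 in young immature cells. The median neutrophil-primed progenitor-like cell held 1295 UMIs in young and 28108 in old mice after stroke, and 12249 in young mice at steady state. The part of this difference in depth in the Pim1 gap was not tested. Saa3 in monocyte-like cells was at 6.51 in old and 9.57 in young mice, and Vcan at 2.91 in old and 4.53 in young mice. After stroke the level of Saa3 was 876 CPM in old and 640 CPM in young mice, and that of Vcan 462 CPM in old and 458 CPM in young mice. The steady-state levels were 9.64 CPM in old and 0.841 CPM in young mice for Saa3, and 61.4 CPM in old and 19.9 CPM in young mice for Vcan. Cebpb in immature cells was at 1.15 in old and 0.49 in young mice, and Ly6g at -1.75 in old and -0.83 in young mice. Dntt in stem and progenitor-like cells was at -2.25 in old and 0.11 in young mice, and Irf8 there at -4.15 in old and -1.46 in young mice. With 1 library behind each side, these gaps were not tested against animals.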

How the data were processed

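Transcripts of single marrow cells were counted in droplets with a 3′ kit. The authors deposited 1 table of UMI counts, unnormalised whole numbers for 23016 genes, for 6 libraries. The aligners and counters STAR 2.5.3a, featureCounts 1.6.4 (Subread), UMI-tools and Cell Ranger 3.0.2, with the mouse build GRCm38 (mm10), are named per the submitters' processing notes, with no role or order. From the counts, cells with at least 500 UMIs and at most 10% mitochondrial UMIs were kept, placed in lineages by marker rate per 10000 UMIs, and summed per library. A cell above the thresholds of more than 1 of the smaller lineages, or of 1 of them and the granule threshold, was set aside; no doublet caller was run, and leaving out cells of over 2 times the median UMIs was an alternative. CPM ratios carry exact conditional binomial intervals, with a count of 0 set to a floor of 3 counts. A gene was tested at 50 CPM as the mean of both libraries and 100 UMIs in both together. Named genes were, per lineage, the 10 highest and 10 lowest ratios that kept their direction without the 10 cells richest in the gene (no gate, ribosomal, mitochondrial, haemoglobin, immunoglobulin or sex-chromosome marker genes and no unnamed gene models), members of the gene lists past 2-fold, and up to 4 of the highest members of a list; the text gives a part of these. The ratios and intervals were run on simulated Poisson counts, the model that the intervals assume. That run had no clumping of UMIs in a few cells, so it does not show how the intervals hold under clumping. The members, lists and gate thresholds were chosen with earlier results of these data known, and the limit of 20% shared 3′ words (32-base words of the last 600 bases) after seeing them. Scripts ran in Python 3.11.15 with scipy 1.17.1, pandas 2.3.3, numpy 2.4.6 and matplotlib 3.10.9.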

Additional observations from a re-analysis of the deposited data

Results flagged for a closer look

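Thbs1, the gene of the matrix and platelet protein thrombospondin 1, differed in opposite directions in old and young mice. In immature neutrophil-like cells it was at 113 CPM after stroke and 42.4 CPM at steady state in old mice (log2 1.41, 1.18 to 1.65), and at 22.1 CPM after stroke and 61.9 CPM at steady state in young mice (log2 -1.48, -1.87 to -1.12). In mature neutrophil-like cells of old mice Thbs1 had 126 UMIs after stroke and none at steady state, a log2 ratio of 3.58 against a floor of 3 counts per library, or 1.92 without the 10 richest cells, while in young mice it was at 14.6 CPM after stroke and 75.0 CPM at steady state (log2 -2.36). With 1 library for each age and state, the difference between the ages was not tested. Ldhc, a lactate dehydrogenase gene, also differed in direction in immature neutrophil-like cells, with a log2 ratio of 1.46 in old and -0.55 in young mice, the second under 2-fold.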

How the results depend on the processing

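No paired analysis was possible because each group has 1 library and no replicate numbers are shared. Over the alternatives run, 181 ratios of named genes gave 1934 values: 1455 moved by less than their counting interval, 474 moved by more and 5 changed sign, and 19 values in 18 genes came under 2-fold. For 110 list medians over all tested members, 761 of 1198 values stayed close, 435 moved and 2 of those at or beyond 1 on the log2 scale changed sign. At most 5% mitochondrial UMIs or at least 1000 UMIs moved no count of genes by 1.5 times. The limit on 3′ sharing and the ceiling on UMIs were added after seeing the data. The cause of a shift was not tested.

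Counts of genes depended most on the minimum. At 10 CPM and 30 UMIs, higher and lower genes numbered 318 and 920 in stem and progenitor-like, 360 and 943 in neutrophil-primed progenitor-like, 201 and 672 in dividing pre-neutrophil-like, 169 and 494 in immature, 184 and 408 in mature neutrophil-like and 382 and 1320 in monocyte-like cells. At 200 CPM they numbered 49 and 31, 61 and 38, 36 and 19, and 31 and 20 in the first 4, 44 higher in mature, and 72 and 41 in monocyte-like cells. The median-of-ratios scale gave 222 higher and 41 lower in stem and progenitor-like cells, and 36, 34 and 179 lower in dividing pre-neutrophil-like, immature and monocyte-like cells. Leaving genes of shared 3′ sequence out of genes and totals gave 62 higher and 104 lower in stem and progenitor-like cells, and 112, 30, 38, 39 and 116 higher in neutrophil-primed, dividing, immature, mature and monocyte-like cells. Cells thinned to 2000 UMIs gave 295 lower in stem and progenitor-like, 58 higher in dividing, and 33 higher and 35 lower in mature cells. In dividing cells the lower genes numbered 65 without the deepest cells, 69 by the mean of the cells' own CPM and 68 with marker thresholds doubled. The mean of the cells' own CPM gave 47 lower in immature cells. Doubled thresholds gave 179 lower in mature and 478 lower in monocyte-like cells.

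2 list medians at or beyond 1 on the log2 scale changed sign. The glucocorticoid list in neutrophil-primed progenitor-like cells had -0.16 at 10 CPM and 30 UMIs in place of 1.23, and the heat shock list in immature cells had 0.13 by the mean of the cells' own CPM in place of -1.38. In stem and progenitor-like cells the S phase median of -1.13 was -0.73 on the median-of-ratios scale, -1.47 without the deepest cells, -0.84 at 200 CPM, -0.65 with doubled thresholds and -1.37 without stroke cells above the highest steady-state UMI count. The mitosis median there, -0.97, was -0.58, -2.48, -1.39, -2.18 and -1.68 in the same order and -1.30 by the mean of the cells' own CPM. S phase in monocyte-like cells, -0.98, was -0.78 on the median-of-ratios scale, -0.55 at 200 CPM, -3.85 with doubled thresholds and -1.28 under the UMI ceiling. The alarmin median in dividing cells, 0.76, was 1.05 on the median-of-ratios scale, 0.59 without the deepest cells, 0.56 by the mean of cells, 0.55 thinned, 0.65 at 200 CPM, 0.69 with doubled thresholds, 0.67 without shared genes and 0.70 under the UMI ceiling. In immature cells, 0.60, it was 0.83 on the median-of-ratios scale, 0.52 without the deepest cells, 0.47 by the mean of cells, 0.52 at 200 CPM and 0.51 without shared genes. In monocyte-like cells, 1.06, it was 1.26 on the median-of-ratios scale, 0.94 by the mean of cells, 0.97 thinned, 1.13 at 200 CPM, 0.92 with doubled thresholds, 1.14 without shared genes and 1.16 under the UMI ceiling. The azurophil median in immature cells, -1.52, was -1.29 on the median-of-ratios scale, -0.17 by the mean of cells, -1.79 thinned, -1.40 at 10 CPM and at 200 CPM, -1.28 with doubled thresholds and -1.73 under the UMI ceiling. The ribosomal median in mature cells, -0.97, was -1.67 without the deepest cells and -1.33 thinned.

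The 5 ratios that changed sign were Ctsg in immature cells, 0.043 by the mean of cells, and in monocyte-like cells with doubled thresholds Dmkn at -0.14, Hist1h2ab at -1.61, Hist1h2an at -0.87 and Hist1h3f at -0.32. Doubled thresholds put the shares, stroke before steady state, at 2.07% and 11.99% for stem and progenitor-like, 5.54% and 14.4% for neutrophil-primed progenitor-like, 5.99% and 8.42% for dividing pre-neutrophil-like and 0.791% and 7.62% for monocyte-like cells, at 13.1% for immature cells after stroke and at 0.908% for mature cells at steady state. Over gated cells alone they were 11.2% and 19.2%, 15.1% and 21.6%, 10.1% after stroke, and 11.5% and 15.9% for the same 4 lineages, with 22.04% immature and 4.85% mature after stroke. In the mature gate 100 UMIs in both libraries together correspond to 136 CPM, which limits that lineage most.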

Other observations

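Smaller lineages that enter none of the comparisons above showed some of the same genes. In conventional dendritic-like cells Saa3 was at 127 CPM after stroke with no UMI at steady state, Ifitm1 at 2130 CPM after stroke and 104 CPM at steady state, and Pim1 at 263 CPM after stroke and 79.4 CPM at steady state. In plasmacytoid dendritic-like cells Pim1 was at 289 CPM after stroke and 94.8 CPM at steady state. In T-like cells Ifitm1 was at 44.3 CPM after stroke and 148 CPM at steady state, from 15 UMIs after stroke and 28 at steady state.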
